A study of Mus musculus with 15 samples.

Results

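mmu-miR-674-3p, mmu-miR-674-5p and mmu-miR-676-3p, named below without the species prefix, are 3 of the 1122 mouse miRNAs on the array used in this study. They were picked by name as rodent miRNAs about which little is known and whose signal stood among the largest increases with treatment at day 9. The day 9 comparison therefore chose them, and every value that rests on the day 9 arrays is given below as a description with no test. The miRNAs were measured while mouse epiblast stem cells (EpiSC), derived from mice with a GFP reporter of Pitx3, a gene of midbrain dopaminergic neurons, differentiated over 14 days. Cells at day 5 had not yet met the morphogens. Treated cells were given SHH and FGF8 from day 5 and were collected at day 9 and at day 14, and control cells of both days were grown without them. All 5 groups carry the Pitx3-GFP allele and had 3 arrays each. The labels do not say whether the 3 samples of a group came from separate cultures, so a p-value measures the spread between these samples, which may be technical.

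A miRNA gene is transcribed as a longer RNA that folds into a hairpin, and Drosha and Dicer cut a short duplex from it. Either arm of the duplex, named 5p or 3p, can be loaded into an Argonaute protein, where bases 2 to 8 of the miRNA, the seed, pair with target mRNAs and lower their output. Both arms of miR-674 have probes on the array. SHH and FGF8 are signals of the floor plate and of the midbrain and hindbrain boundary, and are added to cultures to direct progenitors to a ventral midbrain fate.

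The mature sequences are shown because the 3 miRNAs come from 2 hairpins and do not share a seed. They are from RefSeq on GRCm38.p6, are written 5′ to 3′, and have the seed in capitals. All 3 names matched that table, as did 227 of the 306 tested miRNAs.
miR-674-3p: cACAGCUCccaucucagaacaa
miR-674-5p: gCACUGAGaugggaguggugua
miR-676-3p: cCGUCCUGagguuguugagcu
miR-674-3p lies at chr2:117185186-117185207, miR-674-5p at chr2:117185151-117185172 and miR-676-3p at chrX:100381151-100381171, all on the plus strand. miR-674-3p and miR-674-5p are 22 bases long with 50% and 54.5% G and C, and miR-676-3p is 21 bases long with 57.1%. Among the 1679 mature mouse miRNAs of the table, 0 others have the seed of miR-674-3p and 0 others that of miR-676-3p. The seed of miR-674-5p is also that of miR-1947-3p and miR-3473d. Of these, miR-1947-3p was tested, and at day 14 it differed between treated and control cells by -0.17 on the log2 scale (SE 0.24, adjusted p = 0.60 in limma).

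The hairpins are shown to place the arms, which are in capitals.
Mir674: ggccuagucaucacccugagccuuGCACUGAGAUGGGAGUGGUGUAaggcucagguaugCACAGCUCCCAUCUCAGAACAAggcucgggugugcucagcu
Mir676: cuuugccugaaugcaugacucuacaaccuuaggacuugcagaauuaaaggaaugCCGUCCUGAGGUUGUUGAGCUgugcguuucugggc
Bases 4 to 15 of miR-674-5p, CUGAGAUGGGAG, pair without a break with bases 6 to 17 of miR-674-3p, CUCCCAUCUCAG. This run of 12 Watson-Crick pairs compares with a median longest run of 6 over the 677 hairpins that have both arms in the table, of which 27 (3.99%) reach at least 12. Mir674 (chr2:117185127-117185226) lies in no gene span of the RefSeq table, between Spred1, which codes for an inhibitor of RAS and MAP kinase signalling, and the pseudogene Gm18612. Mir676 (chrX:100381097-100381185) lies on the same strand within the span of Eda, which codes for ectodysplasin, a TNF family ligand of hair and tooth development. Whether it is exonic or intronic was not determined here. The array also has 4 probes for miR-676-5p, the other arm of Mir676. That arm was above background on 0 of 15 arrays, with no signal over 0.899% of the array reference.

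The array reference is the 75th percentile of signal over the 353 probes that were above background on all 15 arrays. It ran from 149 to 337 intensity units, and levels below are percentages of it. A miRNA counted as above background where at least 50% of the spots of its brightest probe carried the scanner software's flag. By the same share for any of their probes, 238 to 333 miRNAs were above background per array. On the log2 scale, signals were raised to a floor at 5.19% of the reference (-4.27), so values at the floor have no order. A test in limma was made for the 306 miRNAs that had a group in which every array was above background, and a miRNA was called at an adjusted p below 0.05. Replicates of a group correlated at 0.980 to 0.998 (Pearson, across miRNAs, which are not independent replicates), 0 spots were saturated, and 3 arrays a group limit the precision. The arrays lie on 2 slides. Slide 1 holds day 5, treated day 9 and treated day 14 replicates 1 and 2, slide 2 holds treated day 14 replicate 3 and all controls, and spike-in controls were lower on slide 2 (labelling 2.71 to 2.86 against 2.97 to 3.11, hybridisation 4.02 to 4.24 against 4.40 to 4.43, log10).

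miR-674-3p was the brightest of the 3 and was above background on all 15 arrays. Its level was 13.9%, 11.8% and 18.0% of the reference at day 5. In treated cells it was 61.8%, 61.7% and 68.3% at day 9 and 26.7%, 26.0% and 26.8% at day 14. In control cells it was 14.2%, 15.3% and 14.7% at day 9 and 11.8%, 11.2% and 12.3% at day 14. The 6 treated arrays thus lay above all 9 others, with the day 9 arrays on top. The order of the group means was treated day 9 (64.0% ± 3.75, SD, n = 3), treated day 14 (26.5% ± 0.386), control day 9 (14.7% ± 0.576), day 5 (14.6% ± 3.16) and control day 14 (11.7% ± 0.566). The day 5 arrays overlapped those of both control groups, while the control arrays of day 9 all lay above those of day 14.

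miR-674-5p, the other arm of the same hairpin, was dimmer and was above background on 11 of 15 arrays. Its level at day 5 was 6.31%, 5.83% and 8.37% of the reference, the first of these not above background. Treated cells had 28.8%, 27.3% and 28.2% at day 9 and 9.70%, 9.07% and 9.03% at day 14. Control cells had 11.9%, 9.73% and 9.70% at day 9, and 4.19%, 4.79% and 4.74% at day 14, when 0 of 3 arrays were above background. Treated day 9 arrays again stood above all others, but the treated arrays of day 14 and the control arrays of day 9 overlapped. The group means were 28.1% ± 0.732 (SD, n = 3) in treated day 9 cells, 10.4% ± 1.24 in control day 9 cells, 9.27% ± 0.378 in treated day 14 cells, 6.84% ± 1.35 at day 5 and 4.57% ± 0.332 in control day 14 cells. Day 5 arrays lay below the treated day 14 arrays. The day 5 arrays above background (5.83% and 8.37%) lay above the control day 14 signals, which come from the other slide. The first day 5 array and the control day 14 arrays have no order among themselves, since none of them was above background.

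miR-676-3p was above background on 6 of 15 arrays, which are the 6 treated arrays. In treated cells its level was 20.6%, 20.4% and 20.6% of the reference at day 9 and 11.7%, 10.9% and 11.1% at day 14. The signal that was not above background was 6.25%, 3.91% and 6.82% at day 5, 2.88%, 3.19% and 3.28% in control cells at day 9, and 3.00%, 3.34% and 3.50% in control cells at day 14. Treated means were 20.6% ± 0.126 (SD, n = 3) at day 9 and 11.2% ± 0.401 at day 14, and the 2 groups did not overlap. The other 3 groups have no order among themselves, since none of their arrays was above background.

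**Figure D1:**
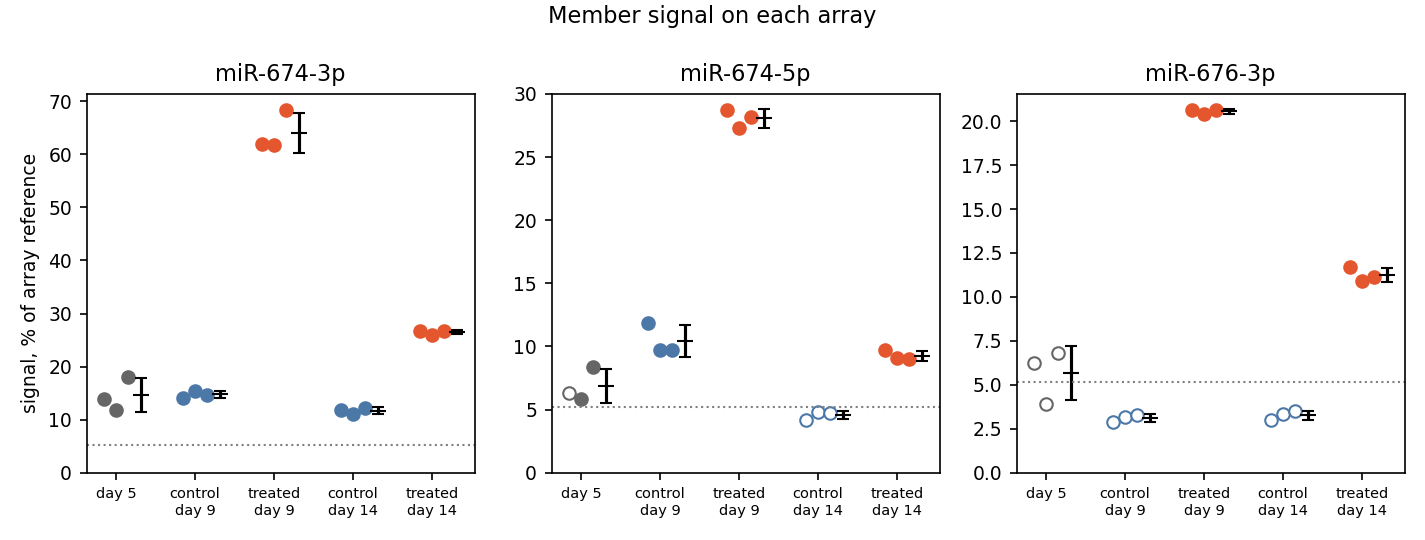
Level of miR-674-3p, miR-674-5p and miR-676-3p on each of the 15 arrays, as percent of the array reference on a linear axis, by group. Filled points are above background and open points are not; black marks give the mean ± SD of 3 arrays and the dotted line is the floor at 5.19%. Treated day 9 arrays are the highest for each miRNA, and miR-676-3p has filled points in treated cells alone.

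Treated and control cells at day 14 were compared first, since neither group's arrays chose the miRNAs; the question is whether the miRNAs that stood out at day 9 still differed with treatment at the end of the culture. All 3 were higher in treated cells. miR-674-3p was 2.26-fold higher (log2 difference 1.18, SE 0.12, 95% interval 0.93 to 1.43, adjusted p = 2.1e-06 in limma). miR-674-5p was at least 1.73-fold higher, because the controls were below background (fitted log2 difference 0.84, SE 0.12, adjusted p = 5.0e-05 in limma). miR-676-3p was at least 2.09-fold higher, for the same reason (fitted log2 difference 1.12, SE 0.08, adjusted p = 1.0e-07 in limma). For both, every day 14 control value was the floor itself (SD 0). Their SE and p thus hold no measured spread of these controls. miR-676-3p entered the test only through its treated groups. For each of the 3, all treated arrays lay above all control arrays. Among all 306 tested miRNAs, 119 (38.9%) were called higher and 44 (14.4%) lower in this comparison, and for 126 (41.2%) all treated arrays lay above all control arrays, so 3 of 3 called higher is to be read against a background of that size. That background depends on the scaling: with the percentile taken over all mouse probes 37 were higher and 77 lower, with quantile normalisation 69 and 65, and with median scaling 76 and 64, while the 3 miRNAs were called higher under each. The median difference of all tested miRNAs was 0.21, and relative to it the differences were 0.96 for miR-674-3p, 0.62 for miR-674-5p and 0.90 for miR-676-3p. Among the 245 miRNAs above background on every array of both groups, miR-674-3p held rank 10 by size of increase; the others could not be ranked because their controls were below background.

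The day 14 difference was of like size within slide 2, where treated replicate 3 can be set against the 3 controls. There it was 1.19 for miR-674-3p (26.8% of the reference against at most 12.3%), 0.80 for miR-674-5p (9.03% against at most 4.79%) and 1.1 for miR-676-3p (11.1% against at most 3.50%), with no test for a single treated array. A fit in limma with slide as a block gives the same differences, since they rest on that single treated array; its adjusted p of 0.00022, 0.0036 and 2.1e-05 take the spread from the other arrays and assume that the lone array varies like them. Under another background correction, normexp with an offset of 50, miR-674-3p was still called, but miR-674-5p (0.065, adjusted p = 0.85 in limma) and miR-676-3p (0.18, adjusted p = 0.34) were not. In bulk RNA, fewer cells that hold a miRNA and less of it per cell cannot be told apart.

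At day 9, the comparison that chose them, miR-674-3p was 4.33-fold higher in treated than in control cells (log2 difference 2.12, SE 0.12) and miR-674-5p 2.70-fold higher (1.43, SE 0.12). miR-676-3p was at least 3.74-fold higher, its controls being below background (fitted difference 1.99, SE 0.08). By size of increase among the 225 miRNAs above background on every array of both groups, miR-674-3p held rank 3 and miR-674-5p rank 10. In the same comparison 124 of the 306 miRNAs (40.5%) were called higher and 46 (15%) lower, with a median difference of 0.25, and for 157 (51.3%) all treated arrays lay above all control arrays; with the percentile over all mouse probes 41 were higher and 121 lower, with quantile normalisation 65 and 89, and with median scaling 71 and 85. Under normexp the day 9 differences were 1.19 for miR-674-3p, 0.60 for miR-674-5p and 0.67 for miR-676-3p. Other scalings gave 1.52 to 1.83, 0.84 to 1.15 and 1.75 to 1.91, the mean over probes gave 0.75 for miR-674-5p and 1.38 for miR-676-3p, and the floor 4 times higher gave 1.62 for miR-674-3p and 0.44 for miR-674-5p. The choice named no cut-off, so there are no values just inside or outside it. Treated day 9 arrays all lie on slide 1 and control day 9 arrays on slide 2, so no day 9 value can be had within a slide. For each miRNA the fitted difference was smaller at day 14 than at day 9, by 0.94 (SE 0.16) for miR-674-3p, 0.60 (SE 0.16) for miR-674-5p and 0.87 (SE 0.12) for miR-676-3p.

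**Figure D2:**
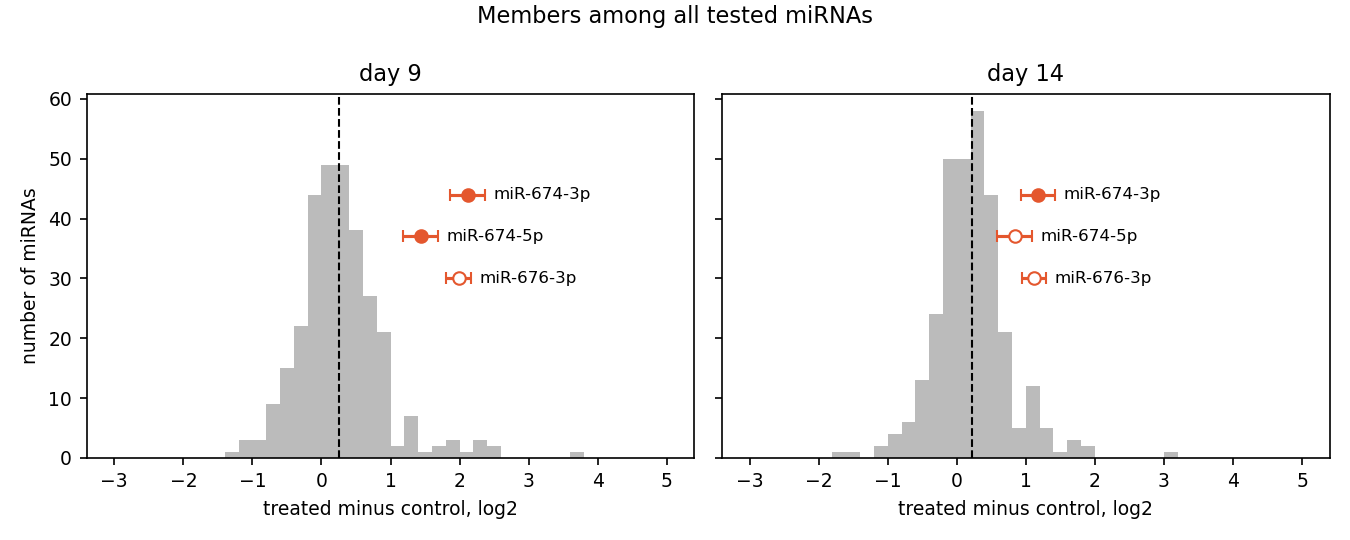
Treated minus control log2 differences of the other tested miRNAs (grey histogram) at day 9 and day 14, with miR-674-3p, miR-674-5p and miR-676-3p as points with 95% intervals; their height in the panel has no meaning. Open points have controls below background, so the true difference may be larger, and the dashed line is the median of all tested miRNAs (0.25 at day 9, 0.21 at day 14). The 3 points lie to the right of the median on both days and further right at day 9.

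Between day 5 and day 14, the miRNAs were higher in treated cells and lower or unmeasured in control cells; both comparisons share the day 5 arrays, so they are given side by side. In treated cells miR-674-3p rose by 0.88 on the log2 scale (SE 0.12, 1.84-fold, adjusted p = 1.1e-05 in limma). miR-676-3p rose at least 1.69-fold from a day 5 level below background (fitted change 0.89, adjusted p = 2.7e-07 in limma). This p sets treated arrays against day 5 values at or near the floor, and the miRNA was tested only through its treated groups. miR-674-5p rose by 0.46 (SE 0.12, 1.37-fold, adjusted p = 0.0029 in limma), but its call was lost under each other scaling of the arrays (0.13 to 0.28), with the mean over its probes (0.11) and under normexp, where the sign turned (-0.24). Within slide 1, which holds day 5 and 2 of the treated day 14 arrays, the changes were 0.87, 0.90 and 0.47 in the same order, and each was called. The change of miR-676-3p also turned under normexp (-0.13) and that of miR-674-3p was not called there (0.21). Of all tested miRNAs 144 (47.1%) rose and 76 (24.8%) fell in treated cells over this time, with a median change of 0.24; the split was 110 and 92 with quantile normalisation and 94 and 101 with median scaling.

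In control cells miR-674-3p fell by 0.30 on the log2 scale between day 5 and day 14 (SE 0.12, adjusted p = 0.036 in limma), and the fall was not called under 7 of 10 other settings or without day 5 replicate 3 (-0.13), control day 14 replicate 1 or control day 14 replicate 2. miR-674-5p was above background on only 2 of 3 arrays at day 5, so no fold bound can be given against control cells at day 14. Its fitted change was -0.38 (adjusted p = 0.0092 in limma). That call was lost under 5 of 10 other settings, and it rests on control values that were all at the floor. Day 5 arrays lie on slide 1 and control arrays on slide 2, and with slide as a block neither fall was called (-0.32, adjusted p = 0.25, and -0.33, adjusted p = 0.24 in limma). miR-676-3p was below background in both groups, so no change can be given. Over all tested miRNAs 105 (34.3%) fell and 105 (34.3%) rose in control cells, around a median change of -0.02.

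Steps that end or start at day 9 describe the course in each arm of the study. From day 5 to day 9, miR-674-3p changed by 2.15 on the log2 scale in treated cells and by 0.03 in control cells. miR-674-5p changed by 2.05 in treated cells and by 0.62 in control cells, so that its control level was also higher at day 9 than at day 5. Its signal was above background on 2 of 3 day 5 arrays. Day 5 arrays lie on slide 1 and control day 9 arrays on slide 2, so these control changes cannot be told apart from a difference between slides. From day 9 to day 14 in treated cells the changes were -1.27 for miR-674-3p, -1.60 for miR-674-5p and -0.87 for miR-676-3p. In control cells they were -0.33 for miR-674-3p and -1.0 for miR-674-5p, whose day 14 level was at least 1.94-fold lower. In treated cells the 3 miRNAs thus had their highest level at day 9 and a lower level at day 14. In the main fit the day 14 level was still above day 5. That rise was not called for miR-674-5p under the other scalings, nor for any of the 3 under normexp.

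The brightest probe stands for each miRNA above, and 9 probes of different lengths read the 3 miRNAs. The second probe of miR-674-3p, also above background on all 15 arrays, gave a log2 difference of 2.02 at day 9 and 1.24 at day 14. The third, above background on 5 arrays, gave 2.02 and 0.08, its controls being below background on both days and its treated level at day 14 near the floor (5.35% of the reference). For miR-674-5p, 2 of the other 3 probes were above background in treated day 9 cells alone, at 10.1% and 7.96% of the reference, and the last on no array. The dimmer probe of miR-676-3p was above background on 4 arrays, all of them treated, 3 at day 9 and 1 at day 14. Spots of the brightest probes that were above background varied by 4.02% to 17.4% (coefficient of variation within an array) for miR-674-3p, 6.68% to 18.8% for miR-674-5p and 6.48% to 19.6% for miR-676-3p.

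**Figure D3:**
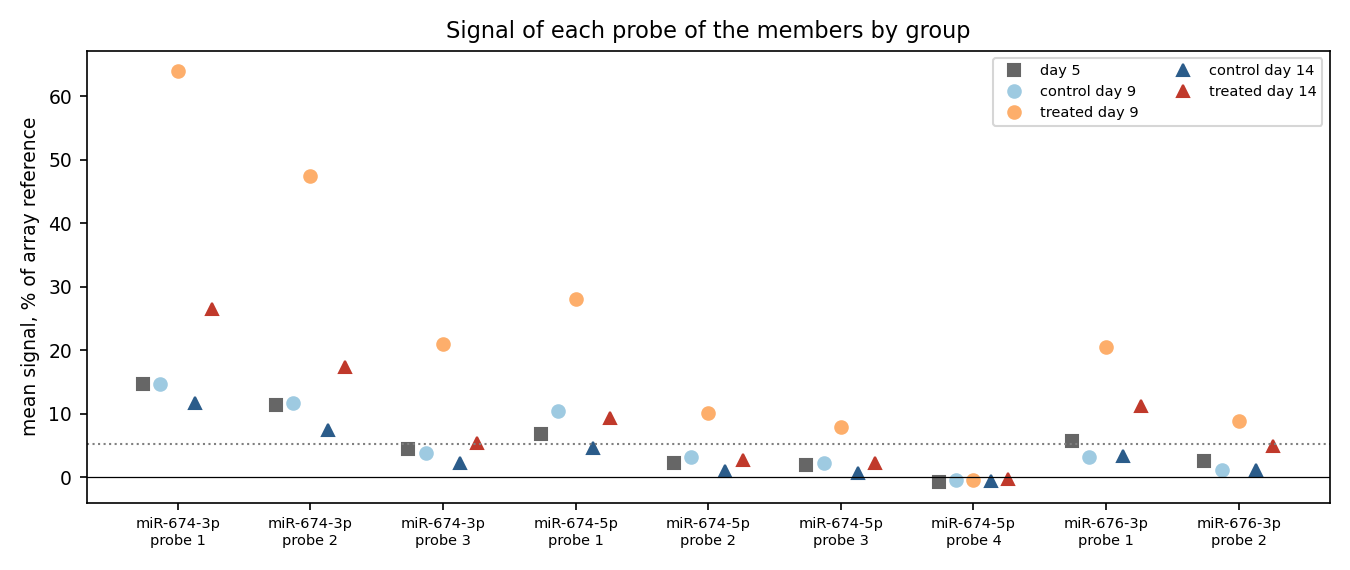
Mean level of each of the 9 probes for the 3 miRNAs in each group, as percent of the array reference. The dotted line is the floor at 5.19%. Each probe that was above background on any array has its highest mean in treated day 9 cells, and the probes differ in brightness.

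The arms of miR-674 come from the same hairpin and were compared within each array. The log2 signal of miR-674-3p minus that of miR-674-5p was 1.09 ± 0.06 (SD, n = 3) at day 5, 1.19 ± 0.09 in treated and 0.50 ± 0.22 in control cells at day 9, and 1.52 ± 0.05 in treated and 1.18 ± 0.07 in control cells at day 14. These are signals of different probes, so their differences between groups can be read and their sizes cannot. At day 14 the treated value exceeded the control value by 0.34 (exact permutation test, two-sided, p = 0.1, the smallest p that 3 against 3 arrays can give). The control signal of miR-674-5p was raised to the floor on all 3 arrays, which can only lower the control value. For these probes and this scaling 0.34 is thus an upper limit, and the test holds no measured spread of that control signal. The difference also depends on the processing: it was 0.16 with quantile normalisation and 0.62 with the mean over probes. At day 9, where both arms were above background in both groups, miR-674-3p differed between treated and control cells by 0.68 more than miR-674-5p. Among the 19 hairpins with both arms so measured at day 9, this ranked 2 by size, the median being 0.36. Both arms were chosen for their day 9 increase and the other hairpins were not, so the rank is a description and was not tested. At day 14, 16 of the 20 hairpins with both arms above background on every treated and control array had arms that differed in the same direction; miR-674 is not among the 20, since its 5p arm was below background in controls.

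The miRNAs nearest in pattern were found by the root mean square difference of log2 signal over the 15 arrays, each miRNA centred on its own mean, among 238 miRNAs above background on at least 12 arrays. The arrays of a group share their treatment and day, so likeness is a description. Nearest to miR-674-3p were miR-27a-3p (0.35), miR-23a-3p (0.38) and miR-152-3p (0.40), against a median of 0.92 over the candidates. For miR-676-3p they were miR-23a-3p (0.27), miR-27a-3p (0.29) and miR-148a-3p (0.31), against a median of 0.80. For miR-674-5p they were miR-21-5p (0.45), miR-365-3p (0.47) and miR-467a-3p (0.47), against a median of 0.90. miR-23a-3p and miR-27a-3p, which come from a shared cluster, were thus near to both miR-674-3p and miR-676-3p. At day 14 they were higher in treated cells by 1.51 (SE 0.07) and 1.79 (SE 0.08). The day 14 arrays were among those that chose them, so these values are a description with no test. Between the 3 miRNAs themselves the difference was 0.19 for miR-674-3p and miR-676-3p, 0.34 for both arms of miR-674, and 0.44 for miR-674-5p and miR-676-3p; the floor, which holds several of their values, enters these figures. miR-676-3p was above background on only 6 of the 15 arrays, under the limit of 12 set for the candidates. Its control values were all at the floor, which narrows its difference between treated and control cells. These figures therefore do not show which of the pairs is nearest, and the same limit holds for the miRNAs named as nearest to miR-676-3p.

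**Figure D4:**
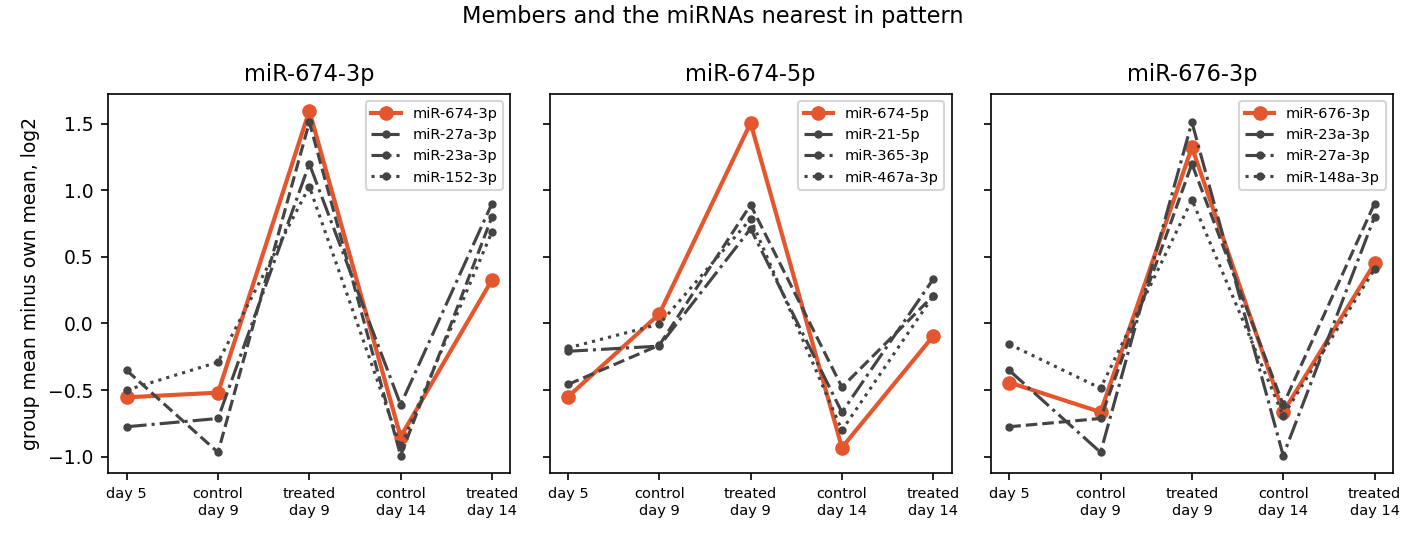
Group means of log2 signal, each miRNA centred on its own mean over the 15 arrays, for miR-674-3p, miR-674-5p and miR-676-3p, each with its 3 nearest miRNAs; lines join the groups for the eye only. In each panel the profile is highest in treated day 9 cells.

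Other miRNAs with neighbouring numbers, miR-665 to miR-721 and miR-871 to miR-883, were described as a setting. Of 116 on the array, 36 were above background by any of their probes on some array and 31 were tested. At day 14, 13 of the 31 were called higher in treated cells and 0 lower, with a median difference of 0.29; over all tested miRNAs 38.9% were higher and 14.4% lower, with a median of 0.21. With the 75th percentile taken over all mouse probes the counts became 1 higher and 1 lower, and the median -0.05. miR-669f-3p, a member of the large Sfmbt2 cluster, differed most (1.07, SE 0.09, adjusted p = 4.7e-07 in limma), followed by miR-721 (0.71, SE 0.11, adjusted p = 9.7e-05). In treated cells between day 5 and day 14, 6 of the 31 rose, led by miR-711 (0.84) and miR-681 (0.82), and 5 fell, led by miR-877-5p (-1.49) and miR-677-3p (-0.93), while 47.1% of all tested miRNAs rose and 24.8% fell. In control cells over the same time 2 rose, miR-711 (0.94) and miR-671-5p (0.33), and 10 fell, with miR-877-5p (-1.78) and miR-677-3p (-1.41) changing most, against 34.3% of all tested miRNAs in each direction.

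Markers of cell types that the cultures could hold are given as summed levels over each list, in percent of the array reference, and their part in the results was not tested. The glial list, of which 2 of 2 miRNAs were above background, was higher in treated than in control cells on both days: it was 473 to 501 in treated and 173 to 211 in control cells at day 9, and 225 to 294 in treated and 156 to 162 in control cells at day 14. At day 5 it was 303 to 358, above the treated day 14 arrays. Most of the sum is miR-219-5p, a miRNA of oligodendrocyte maturation (mean 251 in treated and 145 in control cells at day 14), and miR-338-3p had the opposite order at day 14 (10.1 in treated and 13.4 in control cells). The neuronal list, with 6 of 6 above background, went the other way, at 776 to 808 in treated and 1371 to 1537 in control cells at day 9, and 1511 to 1774 in treated and 2425 to 2874 in control cells at day 14, from 399 to 430 at day 5. Of the endoderm list 1 of 4, miR-375-3p, was above background, on the 6 treated arrays: the list sum was 69.6 to 75.4 in treated cells at day 9 and 42.6 to 50.6 at day 14, and at most 7.03 elsewhere. Of the mesenchymal list 1 of 4, miR-199a-3p, was above background, on the same arrays, with a list sum of 8.89 to 9.89 and 6.48 to 10.0 in treated cells and at most 2.65 elsewhere, while miR-143-3p, miR-145-5p and miR-214-3p were above background on 0 arrays. The pluripotent list, with 7 of 8 above background, fell from 219 to 322 at day 5 to between 24.2 and 33.8 in treated and between 27.2 and 32.4 in control cells at day 14. miR-133b-3p, a miRNA that was linked to dopaminergic neurons of the midbrain, had 0 of 15 arrays above background, although the treated cells are labelled as dopaminergic. The 3 endothelial and blood markers and the 3 striated muscle markers were also above background on 0 arrays.

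**Figure D5:**
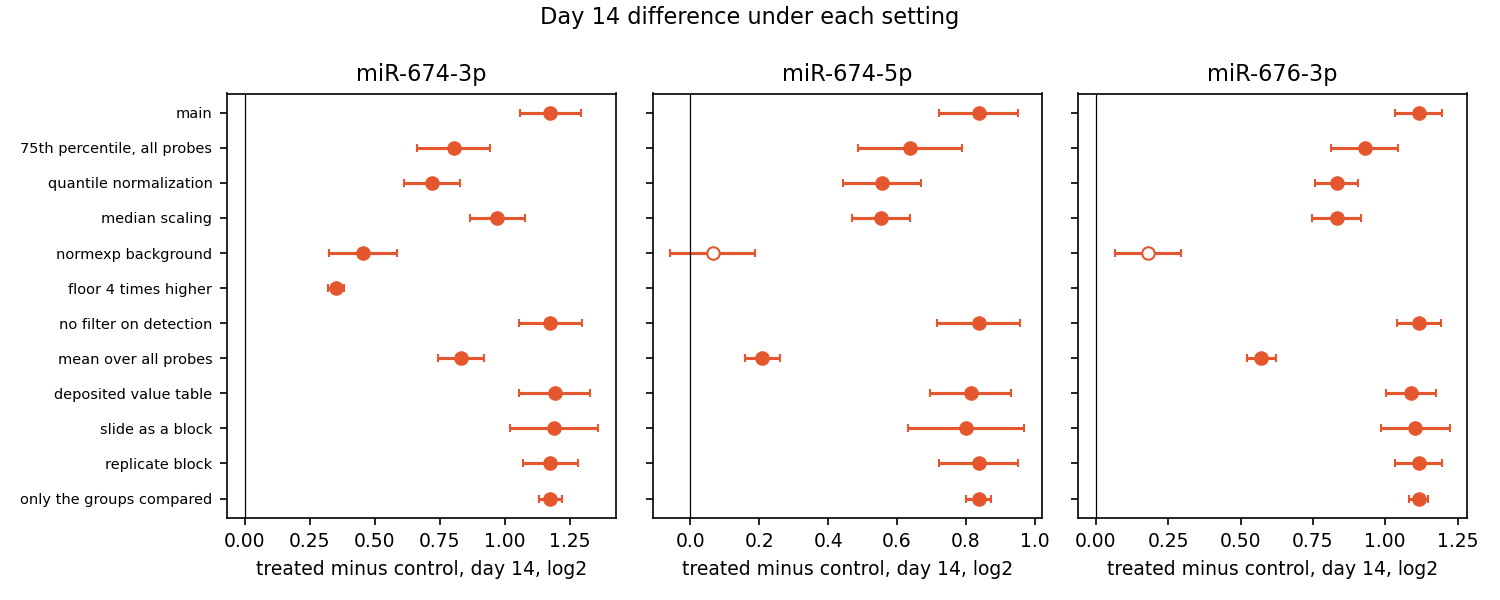
Treated minus control log2 difference at day 14 for miR-674-3p, miR-674-5p and miR-676-3p under each processing setting, with SE as bars; filled points have an adjusted p below 0.05. All plotted differences are above 0, and the open points are those of miR-674-5p and miR-676-3p under normexp background correction.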

How the data were processed

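Total RNA was labelled with Cy3 and hybridised to 15 single-colour Agilent arrays. The deposited scanner tables hold spot signals as intensity, background-subtracted and not normalised between arrays, per the file headers (Feature Extraction 11.0.1.1), and flags of another kind (other) for spots above background, saturated spots and outliers. The submitters' processing notes name limma 3.20.9 with no role. The array design names a build that the reference tables do not share, so positions come from RefSeq alone.

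Each probe's signal was averaged over spots that were not outliers and scaled to the array reference, the 75th percentile of 353 common probes. It was then raised to the floor, set at the typical (median) value that the dimmest probe above background had on an array, and put on the log2 scale. The brightest probe stood for a miRNA. "At least" a fold is against the higher of the dim probe's own signal and the lowest signal above background on each array, never under the floor. limma 3.58.1 (R 4.3.3) fitted the 5 groups on all 15 arrays, two-sided, with 10 residual and 3.06 prior degrees of freedom and Benjamini-Hochberg adjustment over 306 miRNAs. The fit was tested on simulated data with normal noise and no floor, so that test does not cover values at the floor. Figures used matplotlib 3.10.9.

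The members and lists were chosen with earlier results of these data known. The named miRNAs were the 3 members, those with a member's seed, the 3 nearest in pattern to each, and up to 2 called in each direction among the neighbouring numbers. Replicate numbers are shared by the groups. Same-numbered deviations correlated at 0.124 to 0.366 between treated day 14 and day 5. For 3 of 3 treated day 14 arrays the same-numbered day 5 array was the best match. The correlations are weak and the labels name no pairs, so whether these arrays are pairs is not settled. Between treated and control cells at day 14 same-numbered deviations correlated at -0.244 to -0.057, so those arrays do not count as pairs. The main fit did not pair arrays, and the replicate block was run as an alternative.

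Alternatives were other scalings, normexp on median spot signals (mean signals were not used here), a floor 4 times higher, no detection filter, the mean over probes, the deposited value table, slide or replicate blocks, fewer groups, and each replicate left out. The deposited value table holds linear intensity with no centring seen: in 14 columns, 73.4% to 83.7% of 2847 probes equal the mean of all scanner spots within 0.1%. The medians of its columns for replicates 1 to 3 were 0.148, 0.297 and 0.102 (day 5), 0.491, 0.608 and 0.441 (treated day 9), 0.774, 0.774 and 0.313 (treated day 14), 0.032, 0.170 and 0.265 (control day 9), and 0.294, 0.339 and 0.481 (control day 14). Its column for treated day 14 replicate 2 repeats replicate 1 (86.0% of probes within 0.1%), and both were counted as 1.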

Additional observations from a re-analysis of the deposited data

How the results depend on the processing

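At day 14, miR-674-3p stayed higher in treated cells and called under all 11 other settings (0.35 to 1.19); miR-674-5p and miR-676-3p did so under 9 of 10, and were lost under normexp (0.065 and 0.18). With the replicate block the values were 1.18, 0.84 and 1.12, and the block changed no call of the 3 miRNAs in any comparison. Leaving out each array gave 1.14 to 1.21, 0.80 to 0.86 and 1.09 to 1.14.

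For day 5 to day 14 in treated cells, normexp gave 0.21, -0.24 and -0.13; miR-674-5p was also lost with the percentile over all probes (0.28), quantile normalisation (0.26), median scaling (0.13) and the mean over probes (0.11). Leaving out each array gave 0.74 to 1.04, 0.35 to 0.61 and 0.78 to 0.98. For control cells, miR-674-3p was lost with the percentile over all probes (-0.094), quantile (-0.075), normexp (-0.24), no filter (-0.30), the value table (-0.29), the slide block (-0.32) and only the groups compared (-0.30), and miR-674-5p with all probes (-0.35), no filter (-0.38), the mean over probes (-0.10), the slide block (-0.33) and only the groups compared (-0.38). Leaving out each array gave -0.44 to -0.13 for miR-674-3p, lost without day 5 replicate 3 (adjusted p = 0.16 in limma), control day 14 replicate 1 (0.067) or replicate 2 (0.098), and -0.49 to -0.23 for miR-674-5p. The difference between the arms of miR-674 at day 14 was 0.16 with quantile normalisation, 0.62 with the mean over probes, and 0.30 to 0.37 without each array. The floor 4 times higher puts both groups at the floor, and so gives no value, for miR-674-5p and miR-676-3p at day 14 and from day 5 in treated cells, for both arms of miR-674 from day 5 in control cells, and for miR-676-3p at day 9. The cause of the other changes was not tested.

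Counts over all miRNAs moved more. At day 14 the 119 higher became 37 (all probes), 69 (quantile), 76 (median), 45 (normexp), 63 (floor) and 73 (slide block), and the 44 lower became 77 (all probes) and 25 (normexp). At day 9 the 124 higher became 41, 65, 71, 53, 64 and 56 in the same order, and the 46 lower became 121 (all probes), 89 (quantile), 85 (median), 30 (normexp) and 19 (slide block). From day 5 in treated cells the 144 higher became 94 (median), 72 (normexp) and 89 (floor), and the 76 lower 46 (floor); in control cells the 105 higher became 67 (normexp) and the 105 lower 57 (floor). Scaling moved the median of all miRNAs at day 14 from 0.21 to between -0.08 and 0.01, and lowered the differences of the 3 miRNAs from 1.18, 0.84 and 1.12 to 0.72 to 0.97, 0.55 to 0.64 and 0.83 to 0.93. Control signals below background leave only lower bounds for miR-674-5p and miR-676-3p at day 14.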
